A study of Saccharomyces cerevisiae with 24 samples.

Results

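Cytosolic heat shock chaperones of baker's yeast were followed here through a shift from air to nitrogen. The set was given as 10 gene identifiers, of 7140 features in the count files. No measured value entered the rule, but the members were chosen with earlier results of these data known. It holds the small heat shock proteins HSP26 (YBR072W, chrII:382030-382674) and HSP42 (YDR171W, chrIV:806621-807748), the disaggregase HSP104 (YLL026W, chrXII:88623-91349), the J-protein SIS1 (YNL007C, chrXIV:618507-619565), the Hsp70 genes SSA1 (YAL005C, chrI:139503-141431), SSA2 (YLL024C, chrXII:95566-97485), SSA3 (YBL075C, chrII:84499-86448) and SSA4 (YER103W, chrV:364589-366517), and the Hsp90 genes HSP82 (YPL240C, chrXVI:96496-98625) and HSC82 (YMR186W, chrXIII:632355-634472). Coordinates are those of the coding regions in the RefSeq copy of build R64, and each gene has 1 exon. All 10 passed the filter on low counts, which kept 6262 genes.

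Polyadenylated RNA was sequenced from strain yMH914, a MATa derivative of S288C with a repaired HAP1 gene and the ura3D0, his3D200, leu2D0 and lys2-128d alleles, which all 24 libraries share. Each of 3 replicate courses, called courses 1, 2 and 3, gave 1 library before nitrogen flow (0 min) and others after 5, 10 and 30 min and then after 60, 120, 180 and 240 min. The 0 min culture was sampled in air before the cells were diluted into the flasks that received nitrogen, so dilution and loss of oxygen cannot be told apart in any comparison with 0 min. The sources do not say whether the 3 courses came from separate starting cultures, so the p-values given measure the spread between these courses, which may be partly technical.

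Hsp70 and Hsp90 bind unfolded or metastable proteins and cycle with ATP, J-proteins such as Sis1 deliver substrates to Hsp70, Hsp104 pulls proteins out of aggregates, and the small heat shock proteins Hsp26 and Hsp42 hold unfolded proteins in a state that Hsp104 and Hsp70 can recover. The transcription factor Hsf1 drives most of these genes through heat shock elements, which are alternating repeats of GAA and TTC, and Msn2 and Msn4 act on many stress genes through the stress response element AGGGG. Within the family, SSA2 and HSC82 are known as the constitutive forms, SSA1 and HSP82 as forms with both basal and inducible expression, and SSA3 and SSA4 as stress-inducible forms.

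The upstream sequences of 9 of the 10 genes held matches to one or both elements within 500 bases, and the runs below were chosen because they hold 3-unit matches (the first 5) or because they belong to the 2 Hsp90 genes whose RNA behaved differently. Each is read from the RefSeq genome of build R64, 5′ to 3′ on the coding strand, with 12 bases on either side. Capitals mark matches to the heat shock element in every line and, in HSP42, also the 3 stress response elements that follow it.
HSP42, chrIV:806366-806455, plus strand: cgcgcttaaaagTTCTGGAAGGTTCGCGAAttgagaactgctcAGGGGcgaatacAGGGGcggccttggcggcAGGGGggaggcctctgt
HSP104, chrXII:88309-88350, plus strand: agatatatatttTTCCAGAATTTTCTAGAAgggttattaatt
SIS1, chrXIV:619875-619921, minus strand: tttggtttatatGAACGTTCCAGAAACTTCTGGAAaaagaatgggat
SSA1, chrI:141766-141807, minus strand: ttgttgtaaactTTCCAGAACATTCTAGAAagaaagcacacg
SSA2, chrXII:97694-97730, minus strand: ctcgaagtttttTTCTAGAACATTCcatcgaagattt
HSP82, chrXVI:98841-98872, minus strand: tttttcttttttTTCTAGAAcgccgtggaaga
HSC82, chrXIII:632126-632157, plus strand: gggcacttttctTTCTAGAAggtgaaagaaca

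The 3-unit element (GAA-NN-TTC-NN-GAA or TTC-NN-GAA-NN-TTC, where N is any base, searched on both strands) was found within 300 bases before the start of translation in 4 of the 10 genes, HSP42, HSP104, SSA1 and SSA2, and in 0.87% of 6007 promoters of the genome. With 500 bases it was found in 5 of 10, SIS1 being the addition, against 1.48% of 6006 promoters. The 2-unit element (GAA-NN-TTC or TTC-NN-GAA), which lies inside every 3-unit match, was present in 7 of 10 within 300 bases and in 22.39% of promoters, and in 9 of 10 and 35.16% within 500 bases. The stress response element (AGGGG or CCCCT) was present in 5 of 10 within 300 bases against 22.21%, and at least 2 copies stood in 3 of 10, HSP42, HSP104 and SSA1, against 3.48%. SSA3 held neither letter pattern within 500 bases.

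**Figure D1:**
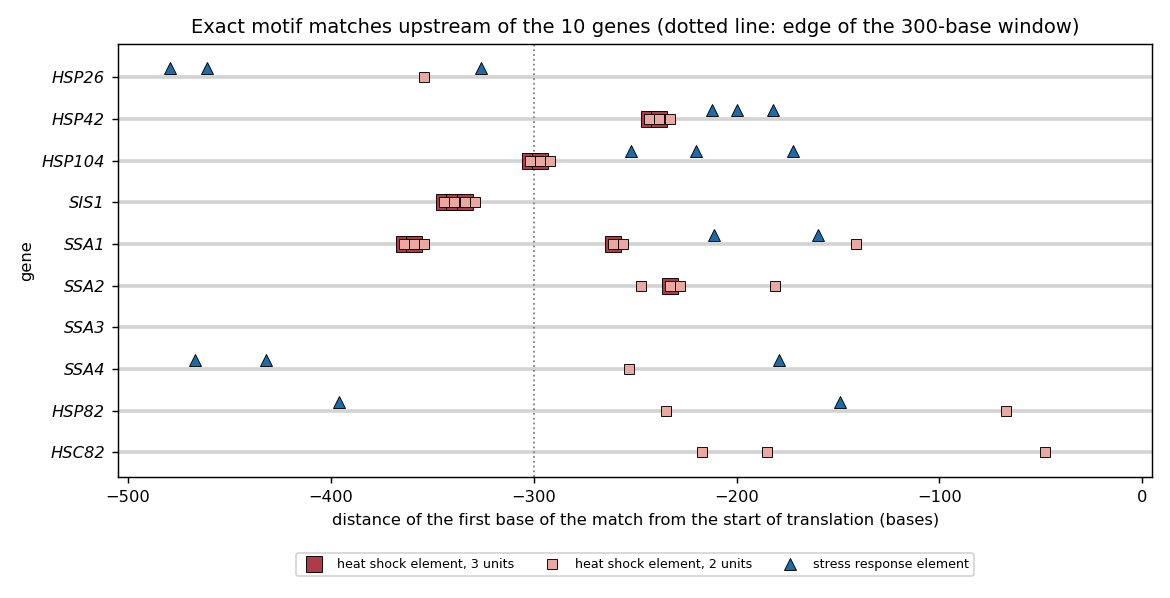
Positions of exact matches to the heat shock element (squares, dark for 3 units and pale for 2 units) and to the stress response element (triangles) in the 500 bases before the start of translation of each gene; the x axis gives the distance in bases of the first base of a match from that start. HSP26, HSP42, HSP104, SSA1, SSA4 and HSP82 carry both kinds of element, SIS1, SSA2 and HSC82 carry heat shock elements alone, and the row of SSA3 is empty.

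Total counts per library ranged from 4980240 to 16346113, and levels are given as CPM, counts per gene scaled to a common library size with TMM factors. Strain and treatment labels were checked on other genes. The deleted marker genes URA3 and HIS3 never exceeded 2 counts and LEU2 had none, the a-cell receptor gene STE2 lay between 569.6 and 1234 CPM, and the alpha-factor gene MF(ALPHA)1 had at most 5 counts, although the alpha-cell genes STE3 and SAG1 reached 20.2 and 34.6 CPM and MF(ALPHA)2 reached 15.4 CPM. DAN1, a cell wall gene of anaerobic growth, averaged 10.8 CPM at 0 min and 3318 CPM at 240 min, and CYC1, cytochrome c, 145 and 2.33 CPM. Libraries of course 1 departed from the time means together (residual correlations of 0.777 to 0.913 over 28 pairs), more closely than those of course 2 (0.565 to 0.728) or course 3 (0.498 to 0.736), and counts of calls are therefore also given without each course.

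In air the set was dominated by the constitutive forms. Per kilobase of positions at which a 65-base read is unique, SSA2 stood at 2658 ± 627 CPM (SD, n = 3) and HSC82 at 865 ± 214, then SSA1 at 266 ± 113, SIS1 at 94.9 ± 73.9, HSP82 at 69.2 ± 47.2 and HSP104 at 57.6 ± 21.0. SSA4 (34.2 ± 5.91), SSA3 (22.0 ± 0.408), HSP42 (13.6 ± 9.75) and HSP26 (5.73 ± 1.58) were lowest on the same scale. SSA2 and HSC82 were each separated from the next gene below by more than the SDs, and SSA1, SIS1, HSP82 and HSP104 were not. The lowest SSA1 library (191.7) was still above the highest of SIS1 (180.2). At 10 min HSP82 (1377 ± 943) and HSC82 (1234 ± 183) stood at levels within their spread. SSA2 remained first in mean at 3831 ± 1385, and HSP26 (51.5 ± 39.2) and SSA3 (30.1 ± 5.98) were last. The correction matters for 2 genes, since 45.7% of the 65-base read positions of SSA1 and 45.4% of those of SSA2 occur once in the genome, against 96.5% for HSP82 and HSC82 and all positions of the other 6. The coding DNA of SSA1 and SSA2 is 96.4% identical, and reads placed in several positions are left out by the counting, as tallies in the files of courses 2 and 3 show. YAL004W, a dubious reading frame known to lie within SSA1 on the other strand, had 0 counts in all 24 libraries. Reads in that overlap are lost to SSA1 if strand was not used in counting, which the sources do not state.

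Messenger RNA of most of the set rose within minutes of nitrogen. None of the 10 was called lower than at 0 min at any time. Of all genes 2.76%, 6.34%, 9.55%, 6.13%, 5.37%, 7.03% and 8.43% were called lower from 5 to 240 min. A count of 0 of 10 is thus near the share of all genes. Calls required a change of 2-fold or more together with an adjusted p below 0.05 in edgeR's quasi-likelihood test, with adjustment over all 6262 genes. At 5 min 3 of the 10 were called higher (HSP42, HSP104 and SIS1), where 3.16% of all genes were. At 10 min 7 of 10 were higher (all but SSA2, SSA3 and HSC82; 5.61% of genes), as they were at 30 min (8.29%). At 60, 120 and 240 min the 6 called higher were HSP26, HSP42, HSP104, SSA1, HSP82 and SIS1 (5.51%, 5.03% and 7.14% of genes), and at 180 min HSC82 joined them to make 7 (6.58%). Over all times together 8 of 10 changed, all upward (9.31% of genes rose and 10.5% fell), and SSA2 and SSA3 did not pass. The median log2 change of the 10 was 2.90 at 10 min and 2.03 at 240 min, beside medians of -0.01 and -0.02 over all genes.

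These 7 comparisons with 0 min share the same 3 libraries, and the course decided several counts. With the course as a block the counts were 4, 7, 7, 7, 7, 8 and 7 from 5 to 240 min, HSP82 being added at 5 min and SSA4 at 60 to 240 min. Without course 1 they were 6, 7, 8, 7, 7, 9 and 7. Without course 2 they were 0, 4, 3, 0, 0, 0 and 0, and without course 3 they were 0, 4, 6, 1, 2, 4 and 3. The same omissions lowered the number of all genes called at 10 min from 748 to 303 and 292, and omission of course 1 raised it to 1190. The 5 min calls of HSP42, HSP104 and SIS1 each held in 6 of 8 alternatives, with adjusted p up to 0.143, 0.335 and 0.575 over them. Scaling to total counts in place of TMM moved the median of all genes up by 0.12 to 0.30 on the log2 scale, and under it 9 members were called higher at 180 min and no direction of a called member turned. The balance of all genes called shifted with it, from 198 higher and 173 lower to 232 and 122 at 5 min, from 519 and 598 to 676 and 439 at 30 min, from 345 and 384 to 544 and 212 at 60 min, and from 447 and 528 to 647 and 335 at 240 min. At 120 min it went from 315 and 336 to 449 and 185, at 180 min from 412 and 440 to 505 and 319, and over time from 583 and 658 to 768 and 484.

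**Figure D2:**
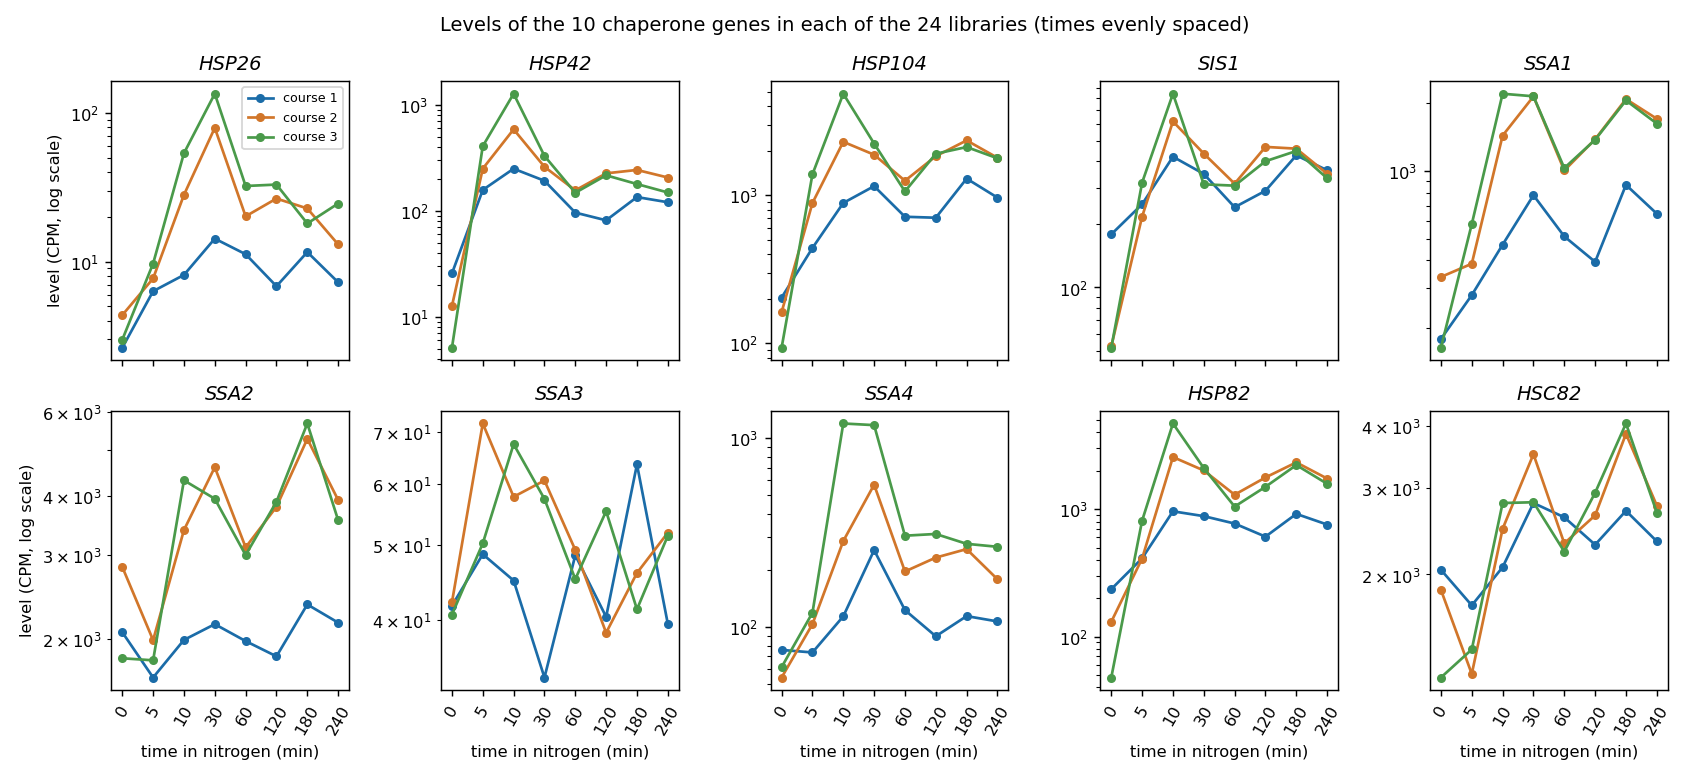
Level of each gene in CPM (log scale; the y range differs between panels) at the 8 times, evenly spaced on the x axis, with 1 line for each course. HSP42 peaks at 10 min in all 3 courses, at 249 to 1269 CPM, and HSP26 at 30 min, at 14.3 to 134.5 CPM, while SSA3 stays between 33.7 and 71.7 CPM.

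Both small heat shock protein genes rose, with different timing. HSP42 stood at 25.6, 12.6 and 5.11 CPM at 0 min in courses 1, 2 and 3, at 157, 249.5 and 406.5 at 5 min, and at 249, 586 and 1269 at 10 min. The lowest library at 5 min was above the highest at 0 min, and the order of the courses was reversed between the 2 times, with course 3 lowest in air and highest in nitrogen. The log2 change was 4.23 at 5 min (SE 0.63, edgeR adjusted p = 0.000313) and 5.60 at 10 min (SE 0.67, adjusted p = 7.22e-06), and the ratio to 0 min at 10 min was 9.73, 46.3 and 249 in the 3 courses. At 240 min HSP42 was at 120, 206 and 149 CPM, which is 48.3%, 35.1% and 11.7% of its peak in the first 30 min and still a log2 change of 3.45 (SE 0.61, adjusted p = 0.000307) from 0 min.

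HSP26 began at 2.64, 4.37 and 2.99 CPM, that is 28, 28 and 31 reads, so its ratios rest on few reads at 0 min. It stood at 8.14, 28.1 and 53.6 CPM at 10 min and at 14.3, 79.3 and 134.5 CPM at 30 min. Every library from 5 min onward was above the 3 at 0 min, and course 1 was the lowest of the 3 at each of these times. The log2 change was 1.26 at 5 min (SE 0.74, edgeR adjusted p = 0.436), 3.17 at 10 min (SE 0.78, adjusted p = 0.00612) and 4.52 at 30 min (SE 0.82, adjusted p = 0.000295). In the fit without the course as a block, HSP26 was also the only member whose later fall was called. At 240 min it was at 7.27, 13.1 and 24.6 CPM, a log2 change of -2.34 from 30 min (SE 0.74, unadjusted p = 0.00501, adjusted p at the threshold of 0.05, where 3.0% of genes were called lower). That call was lost without the filter on low counts and without course 2 or course 3. The members' median log2 change from 30 to 240 min was -0.26.

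HSP104 was called from 5 min on, as HSP42 was. It was at 204, 162.5 and 93.4 CPM at 0 min, at 441, 889 and 1389 at 5 min and at 889, 2303 and 4866 at 10 min. No library at 5 min or later overlapped those at 0 min. The log2 change was 2.56 at 5 min (SE 0.56, edgeR adjusted p = 0.0055), 4.13 at 10 min (SE 0.60, adjusted p = 4.86e-05) and 3.31 at 240 min (SE 0.58, adjusted p = 0.000266). In courses 1 and 2 the highest level came at 180 min, 1299 and 2354 CPM, and in course 3 at 10 min. At 240 min the courses kept 83.6%, 78.0% and 36.6% of their peak in the first 30 min.

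SIS1, which is essential for growth and directs Hsp70 to misfolded proteins, stood at 179, 52.3 and 51.5 CPM at 0 min and at 421, 620 and 841 at 10 min. Its course 1 level in air was more than that of courses 2 and 3 together, and still lay below every later library. The log2 change was 1.47 at 5 min (SE 0.37, edgeR adjusted p = 0.0152), 2.73 at 10 min (SE 0.39, adjusted p = 3.81e-05) and 1.88 at 240 min (SE 0.37, adjusted p = 0.000894). From 180 min the courses had come together, at 427, 460 and 448 CPM and then at 363, 349 and 332 CPM.

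Of the Hsp70 genes, SSA1 and SSA4 rose and SSA2 and SSA3 did not pass. SSA1 was at 179, 337 and 163 CPM at 0 min, at 470, 1435 and 2203 at 10 min and at 779, 2143 and 2146 at 30 min. The groups did not overlap from 10 min on, whereas at 5 min (280, 386 and 580 CPM) they did. SSA1 had a log2 change of 2.60 at 10 min (SE 0.62, edgeR adjusted p = 0.00481), 2.90 at 30 min (SE 0.62, adjusted p = 0.00148) and 2.55 at 240 min (SE 0.61, adjusted p = 0.00444). Each of these calls held in 6 of 8 alternatives, with adjusted p up to 0.317, 0.0904 and 0.154 over them. SSA1 kept 82.8%, 79.5% and 73.7% of its early peak at 240 min.

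SSA4 was at 75.8, 54.1 and 61.5 CPM at 0 min, at 114, 286 and 1199 at 10 min and at 256, 568 and 1175 at 30 min. Course 1 had not left the 0 min range at 5 min (73.5 CPM) and had the lowest value at every time after 0 min. The fit gave SSA4 a log2 change of 3.06 at 10 min (SE 0.72, edgeR adjusted p = 0.00469) and 3.38 at 30 min (SE 0.73, adjusted p = 0.00159). At 60 to 240 min it lay between 1.53 and 1.76 and did not pass, although it passed with the course as a block and in some other alternatives (4 of 8 at 60, 120 and 180 min and 2 of 8 at 240 min). At 240 min, for example, the libraries were at 107, 179 and 267 CPM, all above 0 min, with a log2 change of 1.53 (SE 0.69, adjusted p = 0.123, 0.0132 with the block, and 0.00151 to 0.581 over 8 alternatives). Between 30 and 240 min SSA4 had a log2 change of -1.85 (SE 0.69, adjusted p = 0.106), which passed in 3 of 8 alternatives (0.00231 to 0.569), the course as a block among them (0.00231).

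SSA2 stood at 2066, 2834 and 1821 CPM at 0 min, at 1659, 1988 and 1803 at 5 min and at 2363, 5268 and 5676 at 180 min. The ratio to 0 min at 180 min was 1.14, 1.86 and 3.12 in the 3 courses, and the course 1 library lay inside the 0 min range. The log2 change there was 0.99 (SE 0.38, edgeR adjusted p = 0.0776, 0.00125 with the course as a block, where it was still under 2-fold, and 2.02e-05 to 0.621 over 8 alternatives). SSA3 was at 41.7, 42.1 and 40.6 CPM in air, the tightest group of any member, and ranged from 33.7 to 71.7 CPM over the 21 later libraries. Its largest log2 change was 0.45, at 5 min (SE 0.23, adjusted p = 0.336).

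Of the Hsp90 genes, HSP82 rose early and strongly and HSC82 was called at 180 min alone. HSP82 was at 235.5, 130.5 and 47.7 CPM at 0 min, at 411, 409.8 and 813 at 5 min and at 962, 2566 and 4708 at 10 min. All later libraries exceeded those at 0 min, and the course with the lowest level in air again had the highest at 10 min. The log2 change was 1.98 at 5 min (SE 0.62, edgeR adjusted p = 0.0518, 0.0124 with the course as a block, and 1.71e-05 to 0.874 over 8 alternatives), 4.32 at 10 min (SE 0.68, adjusted p = 0.000119) and 3.30 at 240 min (SE 0.65, adjusted p = 0.000826). HSC82 went from 2044, 1861 and 1236 CPM at 0 min to 1731, 1257 and 1409 at 5 min, where the groups overlapped, and to 2692, 3856 and 4048 at 180 min, where they did not. Its log2 change was 0.82 at 30 min (SE 0.21, adjusted p = 0.00635, under 2-fold) and 1.04 at 180 min (SE 0.21, adjusted p = 0.00138), the one time at which it was called. That call was lost without course 2 or without course 3.

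**Figure D3:**
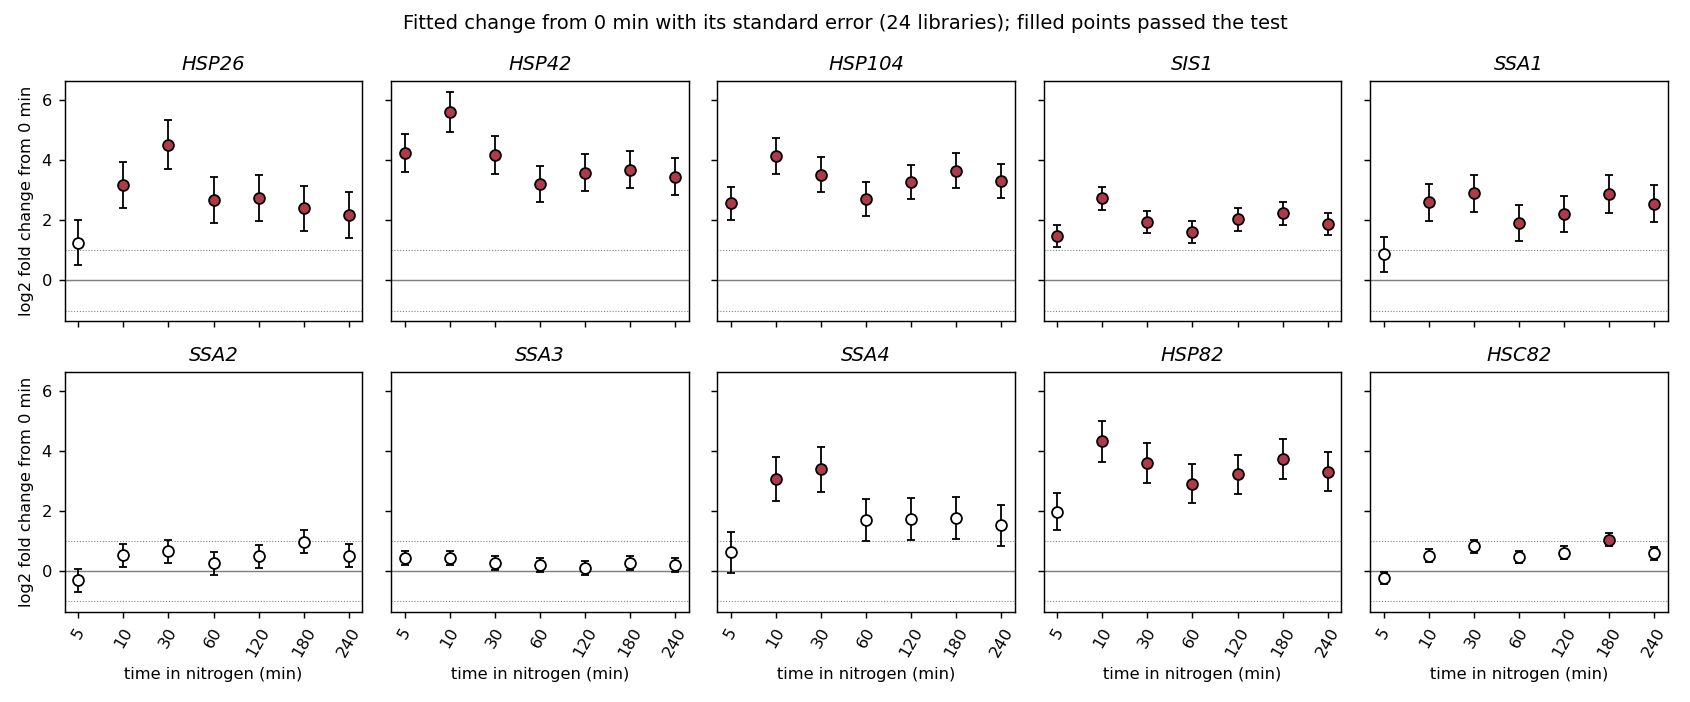
Fitted log2 fold change from 0 min of each gene at 5 to 240 min, with its standard error, from the edgeR fit of all 24 libraries; filled points had an adjusted p under 0.05 and at least a 2-fold change, and dotted lines mark 2-fold. HSP42 reaches 5.60 at 10 min and HSP26 4.52 at 30 min, and SSA2, SSA3 and HSC82 stay near or under 1.

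Within libraries, HSP82 gained on HSC82, SSA1 on SSA2 and SSA4 on SSA3, a comparison that does not depend on the scaling of the library. Per length, HSP82 stood at 0.115, 0.0697 and 0.0383 of HSC82 at 0 min, at 0.462, 1.03 and 1.68 of it at 10 min and at 0.323, 0.627 and 0.589 at 240 min. At 10 min HSP82 was thus above HSC82 in courses 2 and 3 and below it in course 1. SSA1 went from 0.0862, 0.119 and 0.0893 of SSA2 to 0.361, 0.465 and 0.542 at 30 min and 0.297, 0.433 and 0.455 at 240 min. These SSA1 ratios would be too low if reads in the overlap with YAL004W were lost, which was not tested. SSA4 went from 1.84, 1.30 and 1.53 times SSA3 to 7.68, 9.49 and 20.7 times at 30 min, and to 2.74, 3.50 and 5.25 times at 240 min.

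These 3 ratios were higher in every library at 30 and at 240 min than in any at 0 min. The mean log2 change at 30 min was 2.92 ± 1.42 for HSP82 over HSC82, 2.21 ± 0.34 for SSA1 over SSA2 and 2.90 ± 0.85 for SSA4 over SSA3 (SD over 3 courses). The two-sided exact permutation test gave p = 0.1 in each case, the smallest that 3 libraries against 3 allow, and 0.133 after adjustment over the 8 tests. The ratio of HSP26 to HSP42 changed by -0.39 ± 0.18 at 30 min (exact p = 0.6, adjusted 0.6) and by -1.68 ± 0.85 at 240 min (exact p = 0.2, adjusted 0.229), and was lower than at 0 min in 3 of 3 courses at both times, a pairing by course that the test does not use. It was lower than at 0 min by 5 and 10 min in every course and had returned most of the way in courses 2 and 3 at 30 min.

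**Figure D4:**
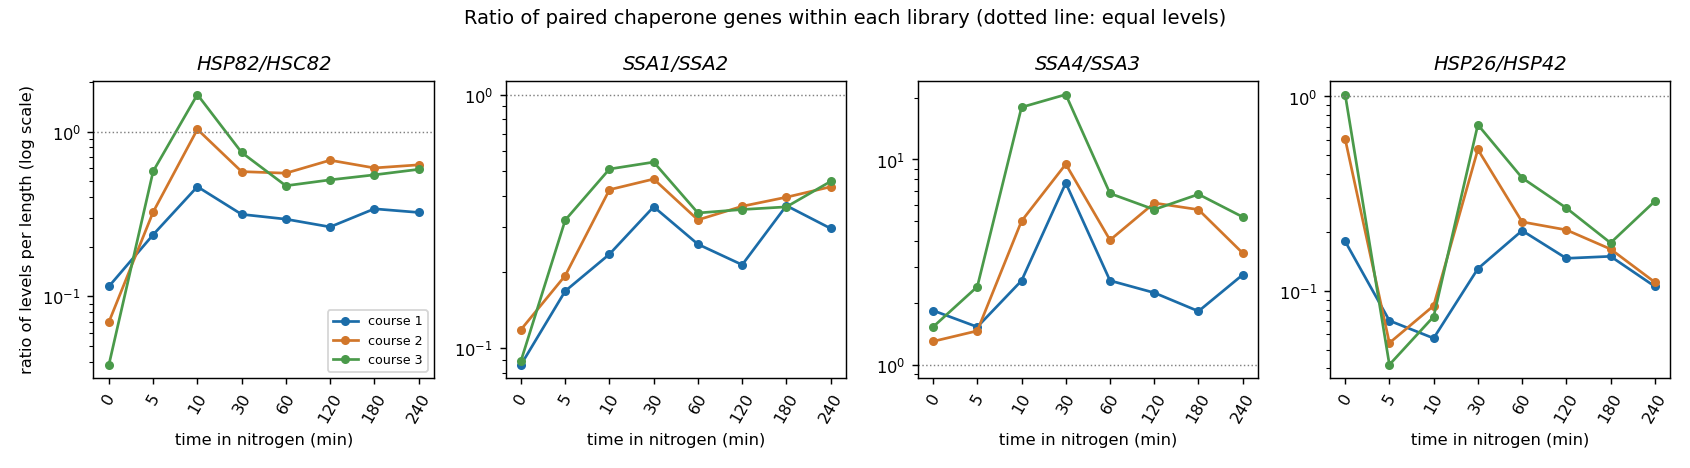
Ratio of the levels per length of 4 pairs of chaperone genes in each library (log scale), by time and course, with a dotted line where the levels are equal. HSP82 crosses HSC82 only at 10 min and only in courses 2 and 3, SSA1 as counted stays below SSA2 in all 24 libraries, and HSP26 relative to HSP42 dips at 5 and 10 min.

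The courses differed in the size of the change. At 10 min course 1 had the smallest ratio to 0 min for 10 of the 10 genes and course 3 the largest for 10 of 10, and the courses had median log2 ratios of 1.31, 2.54 and 4.10. At 240 min course 1 was smallest for 10 of 10 and course 3 largest for 9 of 10 (medians of 1.24, 2.03 and 2.87). The share of all genes with the same order of courses was not computed, so the order cannot be called particular to these 10. HSP42, HSP104, SIS1, HSP82 and HSC82 had their highest 0 min level in course 1 and their lowest in course 3, and the opposite order at 10 min. For SIS1 the 0 min levels of courses 2 and 3 were close, at 52.3 and 51.5 CPM. The 10 genes are not independent, since each ratio of a course rests on the same 0 min library. Non-overlap between the 3 libraries of a time and the 3 at 0 min, with the time above, was seen for 6, 9, 8, 9, 8, 8 and 8 of the 10 genes from 5 to 240 min, against 8.74%, 12.6%, 16.2%, 13.9%, 12.4%, 14.3% and 17.3% of all genes.

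As a share of all counted reads, the 10 genes took 0.417% ± 0.116 at 0 min (SD, n = 3) and 1.36% ± 0.62 at 10 min, with 0.785%, 1.28% and 2.02% in courses 1, 2 and 3. The 30 min share was 1.32% ± 0.26 and the 60 min share 0.930% ± 0.063. Later shares were 1.41% ± 0.41 (180 min) and 1.12% ± 0.23 (240 min). The mean was thus lower at 60 min than at 30 and at 180 min, and the range at 60 min (0.864% to 0.988%) did not overlap that at 30 min (1.02% to 1.48%). Between 30 and 60 min none of the 10 changed by edgeR's or DESeq2's adjusted p (1.36% of genes were called by edgeR, 0.128% as lower), and 2, HSP26 (log2 change -1.84, unadjusted p = 0.0199) and SSA4 (log2 change -1.68, unadjusted p = 0.0246), were under 0.05 before adjustment. With the course as a block both were called lower, with adjusted p = 0.00832 and 0.0133 (0.00195 to 1.0 and 0.0133 to 1.0 over the alternatives).

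A quadratic in time, fitted to 1 course as the study's methods describe, did not pick up these genes. The study also called genes by AutoCor, a permutation test of how smoothly a gene changes over time. AutoCor was developed there to reach genes that DESeq2 missed, and it was not run here. DESeq2's likelihood ratio test called none of the 10 in course 1, where it called 24.5% of the 2868 genes with at least a 2-fold range, none in course 2 (19.5% of 2901) and none in course 3 (14.0% of 3374). No unadjusted p of a member was under 0.05 in any course, the lowest in course 1 being 0.117 for SSA1, and edgeR's quadratic fit also called 0 of the 10 (15.4%, 9.1% and 5.46% of genes in courses 1, 2 and 3). In DESeq2 the likelihood ratio p of HSP42 was 0.85 for its 10.5-fold range in course 1. In course 3 its range was 276-fold and its p 0.546 by the same test. SSA2, SSA3 and HSC82 had ranges of 1.45-, 1.67- and 1.81-fold in course 1 and were not tested there. In the fit with time as a factor, HSP42 changed over time with an adjusted p = 0.000133 in edgeR over the 24 libraries.

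Partners of Hsp70 and Hsp90 were called in both directions, and those called lower were few and near the share of all genes. Of 21 cochaperones, 6 were called higher and 2 lower at 10 min, where 5.61% of all genes were higher and 6.34% lower. Those called were led by SSE2 (log2 change 2.61, SE 0.48), a nucleotide exchange factor of Hsp70, and by APJ1 (2.38, SE 0.41), a J-protein, and on the other side by PPT1 (-2.06, SE 0.39), a phosphatase that binds Hsp90, and CNS1 (-1.97, SE 0.29), an essential Hsp90 cochaperone. Their median log2 change was -0.10, close to that of all genes. Without course 2 the counts were 1 and 1, and without course 3 they were 0 and 1. Of 20 chaperones that act at the ribosome or belong to the chaperonin and prefoldin, none was called at 10 min in edgeR or DESeq2. At 30 min 5 were lower, where 9.55% of all genes were, among them ZUO1 (-1.33, SE 0.21) and SSB2 (-1.45, SE 0.53), partners on the ribosome. The count was 3 under total-count scaling or with no filter and 1 without course 2 or course 3. It was 6 with DESeq2 or with the course as a block, and 7 without course 1. The list's median was -0.65 at 10 min and -0.75 at 30 min.

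Of 11 other targets of Hsf1 that were tested, 7 were called higher and none lower at 10 min, where 5.61% of all genes were higher. At 60 min, where 5.51% of all genes were higher, 4 of them were called (1 without course 2 and 2 without course 3). The leaders at 10 min were HSP78 (log2 change 4.56, SE 0.67), the mitochondrial relative of HSP104, and BTN2 (4.03, SE 0.52), which gathers misfolded proteins. Without course 2 the count at 10 min was 5, and it was also 5 without course 3. Of 17 chaperones of the mitochondria and endoplasmic reticulum, a list that shares HSP78 with the one before, 3 were higher at 10 min, including MDJ1 (1.64, SE 0.23), a mitochondrial J-protein. EUG1, an oxidoreductase of the endoplasmic reticulum, was at 2.25 at 240 min (SE 0.25).

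Genes of the Msn2 and Msn4 type rose almost without exception. Of 22 listed, 21 were called higher at 10 min, 22 at 30 min and 21 at 240 min, with median log2 changes of 3.26, 4.21 and 2.34, where 5.61%, 8.29% and 7.14% of all genes were higher. Without course 2 the counts were 12, 19 and 4, and without course 3 they were 14, 19 and 13. TSL1, a subunit of trehalose synthase, was at 5.82 at 10 min (SE 0.81), and HSP12, a membrane-associated stress protein, at 6.47 at 30 min (SE 0.99). From 30 to 240 min 7 of the 22 were called lower, where 3.0% of all genes were, including DDR2 (-3.71, SE 0.59) and HSP12 (-3.71, SE 0.87). The count was 16 when the course was a block and 3 without course 2 or without course 3.

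The messenger RNA of the transcription factors themselves moved less. HSF1 lay between 38.8 and 76.1 CPM in all 24 libraries, with log2 changes of -0.36 to -0.03 from 0 min, none of which passed in edgeR, with the course as a block or in DESeq2. MSN2 was at 66.5, 91.6 and 64.9 CPM at 0 min and at 83.3, 113 and 126 at 10 min, a log2 change of 0.53 (SE 0.24, adjusted p = 0.158). MSN4 was at 22.5, 48.5 and 58.0 CPM at 0 min and at 56.3, 128 and 164 at 30 min, so that it was higher in each course while the groups overlapped. Its log2 change was 1.43 (SE 0.71, edgeR adjusted p = 0.16), and it was called with the course as a block at 30 min (adjusted p = 0.000245; 0.000245 to 0.57 over the alternatives) and at 120 min (0.00245; 0.00245 to 0.889).

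Likeness of time courses was described as Pearson's r over the 8 times within a course, averaged over the 3 courses, with points that share libraries and a 0 min sample. HSP104 and HSP82 were the most alike of the 45 pairs of members (mean r = 0.98, 0.96 to 0.99 by course), followed by HSP104 with SIS1 (0.96). SSA3 reached at most 0.43 with any other member, and HSP42 and SSA2 had 0.25. Among all genes kept, the 3 nearest to HSP26 were SPI1, YIM1 and STF1 (0.94, 0.93 and 0.92), and those nearest to SSA4 were SSE2, STF1 and BMH1 (0.96, 0.94 and 0.93). HSP82 was nearest to HSP104, then ROQ1 and STF2 (both 0.95), and SSA2 to the Hsp90 activator HCH1 (0.92), to HSC82 (0.90) and to the cochaperone CPR6 (0.88).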

How the data were processed

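Polyadenylated RNA of 24 cultures was sequenced with 65-base reads. Per the paper and the labels, the authors mapped the reads to build R64 with TopHat2 and counted them per gene with HTSeq; tool versions are not given in the sources used here. The deposited values are raw counts for 7140 features, not normalized. Reads placed in several positions were left out, by the tallies of courses 2 and 3, which lowers SSA1 and SSA2; the files of course 1 hold no such tally. The files of courses 2 and 3 also tally reads that fell in no feature (3.81% or more) or in several (up to 0.346%), and these were left out.

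Counts were analysed with edgeR 4.0.16 in R 4.3.3 (TMM factors, filterByExpr, quasi-likelihood F-test, time as a factor with 8 levels, Benjamini-Hochberg adjustment over 6262 genes), with a biological coefficient of variation of 0.59 and 16 residual degrees of freedom. Calls required a 2-fold change or more and an adjusted p below 0.05. The quadratic in time followed the study's methods (DESeq2 1.42.0, counts floored at 20 for the fold range). Steps were tested on simulated counts. Course numbers were taken to pair libraries, because residuals of libraries of 1 course correlated above 0.1 in every pair, at 0.498 or more. The main fit, which gave the edgeR calls and standard errors unless stated, nevertheless did not include the course. Residuals were taken from the mean of the 3 libraries of a time. A shift shared by course 1 therefore moves courses 2 and 3 together, and the check cannot show pairing within course 2 or course 3 by itself. The alternatives were total-count scaling, DESeq2 tests, the course as a block, all genes unfiltered, RLE factors, calls without the fold rule and omission of each course. Standard errors were taken as the absolute log2 change divided by the square root of F. Promoters, coding DNA and read uniqueness were computed from the RefSeq R64 genome with Python 3.11.15. Ratios of gene pairs used exact permutation tests. Named genes are the 10 members, HSF1, MSN2 and MSN4, for each gene list at most the 2 called genes with the largest change in each direction, the 3 genes most like HSP26, SSA4, HSP82 and SSA2, and the label checks. Members and lists were chosen with earlier results of these data known.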

Additional observations from a re-analysis of the deposited data

Results flagged for a closer look

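Alignments to more than 1 place, which the counts leave out, were tallied in the files of courses 2 and 3 and lay above the level of the 0 min libraries (63.0 and 63.3 per 100 counted reads) in 13 of the 14 later libraries. In course 2 they numbered 84.6, 74.2, 103.6, 121.6, 96.1, 87.4 and 103.7 per 100 counted reads in order of time after 0 min. In course 3 they numbered 65.03, 113.5, 107.5, 87.5, 91.2 and 90.3 at 10 to 240 min, and 57.8 at 5 min. The tally does not name genes, so how much of it belongs to SSA1 and SSA2 was not tested.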

How the results depend on the processing

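Of 900 values of single genes under 9 alternatives, 780 kept their direction and side of the threshold, 76 lost a call, 38 gained one and 6 turned direction. The losses were not spread evenly. Without course 2, 44 of 100 values lost a call and 53 kept direction and side, and without course 3 these were 31 and 67. The turns were of values that passed no test: the log2 change of SSA3 from 30 to 60 min was 0.018 with total-count scaling, and with 1 course left out it ranged from -0.32 to 0.051, that of SSA3 at 120 min from -0.0598 to 0.27, that of SSA3 from 30 to 240 min from -0.19 to 0.0051 and that of SIS1 from 30 to 240 min from -0.16 to 0.084. With 1 course left out, the number of the 10 genes called ranged from 0 to 6 at 5 min, 4 to 7 at 10 min, 3 to 8 at 30 min, 0 to 7 at 60, 120 and 240 min, 0 to 9 at 180 min and over time, 0 to 3 from 30 to 60 min and 0 to 2 from 30 to 240 min. From 30 to 60 min the course as a block called 2, and from 30 to 240 min the count was 0 with no filter, 2 with DESeq2 and 2 with the block. The block, fitted because libraries of a course were taken as paired, changed no other call of a member than those of HSP82, SSA4 and HSP26 given above. Without course 1, 2 or 3 all genes called at 5 min were 778, 4 and 34 (371 with all). Leaving out SSA1 and SSA2, the members' share of reads was 0.200%, 0.798% and 0.651% at 0, 30 and 240 min. Single courses gave pair changes of 1.45 and 1.49 (HSP82, course 1), 2.60 and 2.35 (SSA1, course 3), 3.76 (SSA4, 30 min, course 3) and 0.58 (SSA4, 240 min, course 1), and -0.18 and -0.77 for HSP26 to HSP42 (course 2 at 30 min, course 1 at 240 min). With 500 bases, 6 genes had at least 2 stress response elements (8.18% of promoters). The cause of these shifts was not tested. The number of libraries a time, 3, limits the precision.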
